A study of Homo sapiens with 12 samples.

Results

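MHC class I presentation was followed through 9 genes in KBM7 and K562 cells depleted of USP15, a deubiquitinase: the heavy chain genes HLA-B, HLA-C, HLA-E and HLA-F, the light chain gene B2M, the peptide transporter genes TAP1 and TAP2, the loading factor gene TAPBP and the transactivator gene NLRC5. They were taken by gene symbol from the deposited count tables. All 9 had a row among the 26226 genes of the KBM7 table and 8 had a row among the 28328 genes of the K562 table, where HLA-F had none. No symbol was repeated. KBM7 and K562 are cell lines established from chronic myeloid leukemia in blast crisis, and KBM7 is near-haploid. USP15 was knocked down with a siRNA pool (siUSP15), a pool without a human target served as control (siCtrl), and RNA was isolated after 72 h. The libraries comprised 2 siUSP15 and 2 siCtrl libraries of KBM7 and 4 siUSP15 and 4 siCtrl libraries of K562. A single pool was set against a single control pool, so loss of USP15 and other effects of the pool cannot be told apart. No source describes the replicates as independent cultures, so p-values measure the spread between these libraries, which may be technical.

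MHC class I molecules show peptides from inside the cell to cytotoxic T cells. A heavy chain pairs with β2-microglobulin, receives a peptide in the endoplasmic reticulum with the help of tapasin and the TAP transporter, and then travels to the cell surface. Most of these genes are inducible by interferon, and NLRC5 is the transactivator that assembles at class I promoters. K562 cells are widely known for carrying very little class I on their surface, which makes them a standard target for natural killer cells.

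The promoters are shown here because most of the members moved together in KBM7, and because the elements through which class I genes are known to be controlled can be read in them. RefSeq sequence (GRCh38.p14) was at hand for 7 of the 9 genes, and 6 windows of 200 bases before the annotated start are printed 5′ to 3′ on the strand of the gene (for TAP1, the upstream of 2 annotated starts). Capitals mark matches, on either strand, to the core of the interferon-stimulated response element (ISRE; GAAA and GAAA with 2 free bases between), to a shortened form of it (GAA and GAAA with 2 free bases between), to the core TGACG of the X2 type, to the CCAAT box and to the class I kappaB element, the run of 10 capitals that comes first in HLA-B. The shortened form was added after the windows had been read, and in TAP2 it overlaps the longer core.
HLA-B (chr6:31357180-31357379, - strand): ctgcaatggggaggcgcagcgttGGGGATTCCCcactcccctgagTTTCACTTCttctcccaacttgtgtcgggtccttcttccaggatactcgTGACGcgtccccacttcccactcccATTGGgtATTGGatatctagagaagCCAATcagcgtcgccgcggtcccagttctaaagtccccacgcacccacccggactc
HLA-C (chr6:31272093-31272292, - strand): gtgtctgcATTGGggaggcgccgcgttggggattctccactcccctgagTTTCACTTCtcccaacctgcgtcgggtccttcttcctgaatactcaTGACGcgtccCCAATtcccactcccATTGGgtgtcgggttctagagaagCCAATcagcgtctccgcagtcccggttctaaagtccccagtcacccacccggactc
B2M (chr15:44711317-44711516, + strand): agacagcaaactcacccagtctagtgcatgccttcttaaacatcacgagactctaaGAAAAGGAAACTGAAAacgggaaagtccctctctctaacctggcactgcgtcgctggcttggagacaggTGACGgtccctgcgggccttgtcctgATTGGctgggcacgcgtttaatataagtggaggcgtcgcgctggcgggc
TAP1 (chr6:32853705-32853904, - strand): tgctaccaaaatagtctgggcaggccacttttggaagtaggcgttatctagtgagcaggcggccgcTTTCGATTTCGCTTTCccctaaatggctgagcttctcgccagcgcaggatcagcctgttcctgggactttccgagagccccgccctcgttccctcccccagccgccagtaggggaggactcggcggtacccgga
TAP2 (chr6:32838740-32838939, - strand): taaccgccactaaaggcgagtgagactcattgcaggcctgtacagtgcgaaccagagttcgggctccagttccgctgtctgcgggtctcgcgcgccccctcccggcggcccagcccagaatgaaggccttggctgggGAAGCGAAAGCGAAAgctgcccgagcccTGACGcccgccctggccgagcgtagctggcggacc
TAPBP (chr6:33314079-33314278, - strand): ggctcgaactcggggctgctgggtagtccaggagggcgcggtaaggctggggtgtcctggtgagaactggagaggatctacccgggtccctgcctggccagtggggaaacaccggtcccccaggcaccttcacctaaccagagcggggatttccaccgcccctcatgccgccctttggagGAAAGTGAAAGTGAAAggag

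The windows of B2M, TAP1 and TAPBP each held 2 overlapping ISRE cores, and that of TAP2 held 1. Among 35116 promoter windows of the same length, 2.4% held this core. HLA-B and HLA-C held the shortened form instead, found in 5.11% of all windows, beside TGACG (18.4% of all windows) and several CCAAT boxes (28% of all windows, counting both strands). The kappaB element was matched in HLA-B alone among these genes, against 0.0484% of all windows. HLA-F, not printed, held an ISRE core and CCAAT boxes. These matches describe letters in the reference sequence and say nothing of which factors were bound.

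USP15 RNA was reduced in both lines. It stood at 113.0 and 114.2 normalized CPM (CPM, counts scaled to library size after TMM scaling, which corrects for library composition) in siUSP15 libraries of KBM7, against 209.8 and 215.8 CPM in siCtrl libraries, which left 53.4%. In K562 it averaged 159.5 ± 40.6 with siUSP15 and 304.2 ± 37.6 with siCtrl (SD, n = 4 each), or 52.4% of control, and the groups did not overlap. The ratio of siUSP15 to siCtrl was 0.459 in K562 replicates 1 and 2 and 0.577 in replicates 3 and 4, where the knockdown was thus weaker. All 5 hematopoietic marker genes had a mean of at least 1 CPM in both lines. Depth per library was between 23450607 and 29441118 counts for KBM7 and between 23020401 and 43566543 counts for K562. On the first principal component of the K562 libraries, with 64.4% of the variance, replicates 1 and 2 stood apart from replicates 3 and 4 as library sets. No source names what the sets differ in, so K562 results are given without a block and with the sets as a block.

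In KBM7, transcripts of HLA-B, HLA-C, HLA-E, B2M, TAP1, TAP2 and NLRC5 rose with siUSP15. Of the 8 members that passed the filter on low counts, 7 were higher and 0 lower at a Benjamini-Hochberg adjusted p under 0.05 from edgeR's 2-sided quasi-likelihood test. Over all 14980 genes tested in KBM7, 29.0% were called, 13.2% as higher and 15.8% as lower. The median log2 fold change of the 8 members was 0.53, beside 0.00067 for all genes.

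HLA-B (ENSG00000234745), a classical heavy chain gene on chromosome 6, had the largest change of the tested members. HLA-B counts per library correspond to 746.7 and 660.5 CPM in siUSP15 libraries and 363.0 and 356.5 CPM in siCtrl libraries. Both siUSP15 libraries thus lay far above both siCtrl libraries, with a log2 fold change of 0.97 (SE 0.0558, adjusted p = 5.17e-07 from edgeR). HLA-C (ENSG00000204525), the other classical heavy chain gene examined, had 149.8 and 133.3 CPM with siUSP15, against 81.7 and 81.8 CPM with siCtrl. Its log2 fold change was 0.79 (SE 0.0568, adjusted p = 2.0e-06 from edgeR). In the deposited intervals HLA-C (chr6:31268749-31357158, hg38) covers 3287 bases of HLA-B (chr6:31353872-31357188) on the same strand, and class I genes are close paralogs, so reads may have been split between them. With HLA-B, HLA-C, HLA-E and HLA-F counted as a single feature, the log2 fold change was 0.73 (adjusted p = 2.32e-06 from edgeR).

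HLA-E (ENSG00000204592), a nonclassical heavy chain that natural killer cells read through an inhibitory receptor, changed less. It had 245.6 and 230.4 CPM with siUSP15 and 209.7 and 212.1 CPM with siCtrl. The libraries did not overlap, and the log2 fold change was 0.18 (SE 0.0457, adjusted p = 0.0134 from edgeR). The HLA-E call was lost without siCtrl replicate 1 (adjusted p = 0.113 from edgeR). HLA-F (ENSG00000204642), another nonclassical heavy chain gene, was almost absent: 6 and 1 counts with siUSP15, against 2 and 0 counts with siCtrl. Its ratio of 3.53 had a 95% counting interval from 0.671 to 34.8 (exact binomial, counting error only), so no difference was detectable at this depth. HLA-F also overlaps HLA-F-AS1 on the other strand by 11928 bases, and whether reads were counted by strand is not given in the sources used here.

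B2M (ENSG00000166710, chromosome 15), which encodes the light chain shared by all class I molecules, was the most abundant member. It had 1156 and 1115 CPM with siUSP15, against 763.7 and 749.1 CPM with siCtrl. The gap between the groups exceeded the spread within either, and the log2 fold change was 0.59 (SE 0.0438, adjusted p = 2.8e-06 from edgeR).

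Both subunits of the transporter rose. TAP1 (ENSG00000168394) had 126.7 and 114.5 CPM with siUSP15, against 79.1 and 74.5 CPM with siCtrl, so that its log2 fold change was 0.65 (SE 0.0569, adjusted p = 8.85e-06 from edgeR). Its interval lies within that of PSMB9 on the other strand, without shared exon bases, and shares 672 exon bases with PSMB8-AS1. TAP2 (ENSG00000204267) had 52.2 and 51.2 CPM with siUSP15, against 37.4 and 36.9 CPM with siCtrl, a log2 fold change of 0.48 (SE 0.0556, adjusted p = 7.51e-05 from edgeR). Replicates of TAP2 lay within 1 CPM of each other in either group.

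TAPBP (ENSG00000231925), encoding tapasin, which bridges the TAP transporter and empty class I molecules, was the tested member that did not pass. It had 232.6 and 218.0 CPM with siUSP15 and 203.7 and 209.9 CPM with siCtrl, with a log2 fold change of 0.12 (SE 0.0466, adjusted p = 0.065 from edgeR), and it passed without siUSP15 replicate 2 (0.17, adjusted p = 0.00206 from edgeR). NLRC5 (ENSG00000140853, chromosome 16) rose by 0.48 on the log2 scale (SE 0.0618, adjusted p = 0.000151 from edgeR). It had 45.5 and 46.4 CPM with siUSP15, against 34.1 and 31.7 CPM with siCtrl.

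No library of the siUSP15 group overlapped the siCtrl group for any of the 8 tested members of KBM7, a pattern that 32.9% of all tested genes showed in the same direction. With both cell lines in a single fit, which takes its estimate of the spread from the K562 libraries too, B2M and TAP2 alone kept their call, so 2 of 8 members were higher. Calls fell over all genes too: 3.64% of 15833 genes were called in that fit, 237 as higher and 340 as lower. Lineage markers also moved in KBM7. The summed level of 5 erythroid markers was 22.9 to 25.3 CPM with siUSP15 and 50.5 to 54.4 CPM with siCtrl, with GATA1 and ALAS2 above a mean of 1 CPM and none without a count. That of 5 myeloid markers was 134.4 to 138.2 CPM with siUSP15 and 122.5 to 126.4 CPM with siCtrl, with MPO, CEBPA and CD33 above 1 CPM. That of 5 macrophage and dendritic markers was 0.380 to 0.385 CPM with siUSP15 and 1.21 to 1.23 CPM with siCtrl, with no marker at a mean of 1 CPM, CD163 without a count in either group and CD14 without a count with siUSP15. Their part in the class I result was not tested, and in bulk RNA a shift in the mix of cells cannot be told apart from more RNA per cell.

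**Figure D1:**
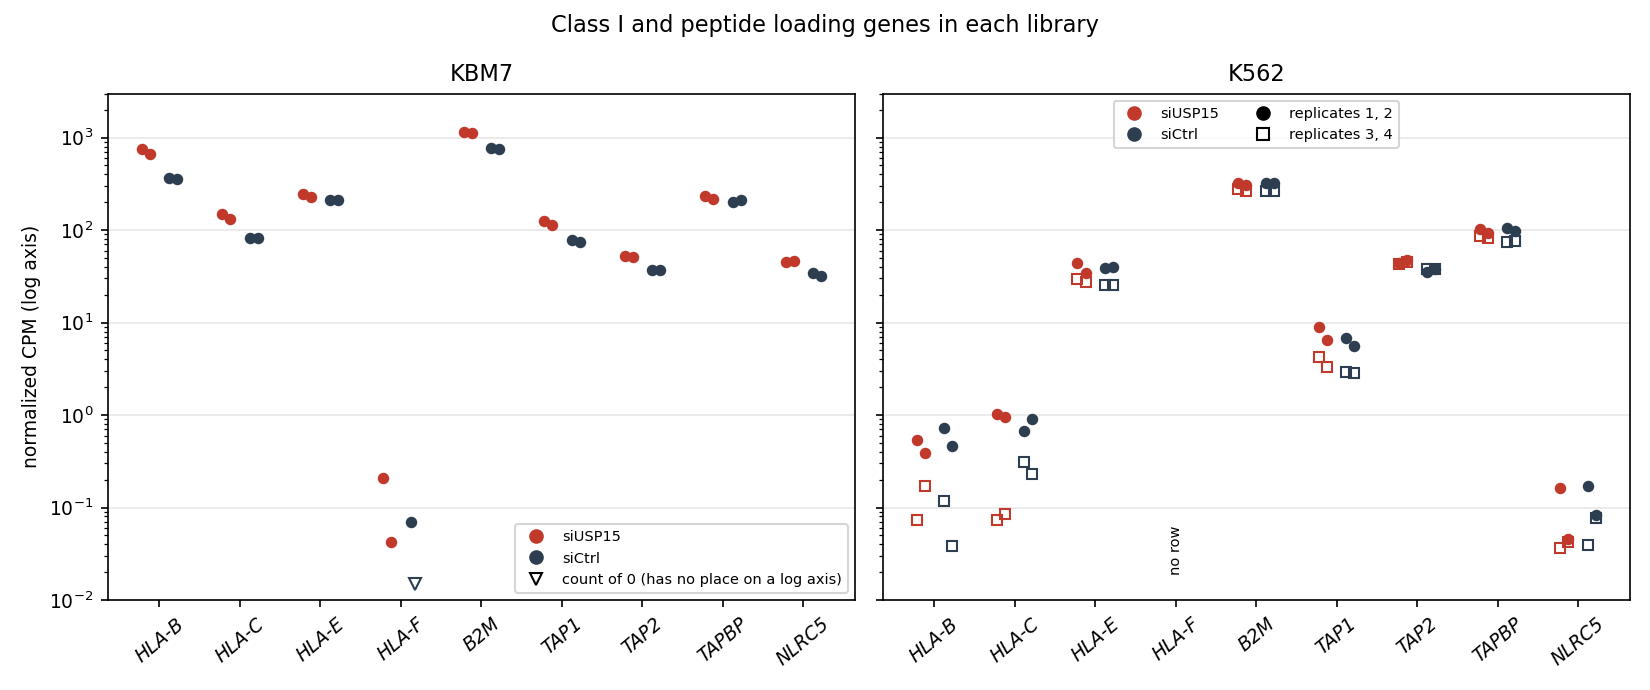
Normalized CPM (log axis) of the 9 genes in each library of KBM7 (left) and K562 (right), siUSP15 in red and siCtrl in dark blue. In KBM7 the siUSP15 points lie above the siCtrl points for every gene tested, while in K562 HLA-B, HLA-C and NLRC5 lie at or below about 1 CPM, and replicates 3 and 4 (open squares) of HLA-B, HLA-C, HLA-E, B2M, TAP1 and TAPBP lie below replicates 1 and 2 of the same siRNA.

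At baseline, that is with siCtrl, K562 cells carried far less class I RNA than KBM7 cells. HLA-B had 10534 and 8419 counts in KBM7 siCtrl libraries, against 17, 11, 3 and 1 counts in K562 siCtrl libraries. The ratio of HLA-B levels, KBM7 over K562, was 1017 with a 95% counting interval from 720.1 to 1487. For NLRC5, 989 and 748 counts in KBM7 stood against 4, 2, 1 and 2 counts in K562, a ratio of 331.4 (174.2 to 725.9). For HLA-C, 2370 and 1933 counts in KBM7 stood against 16, 22, 8 and 6 counts in K562, a ratio of 142.1 (108.1 to 190.6). These intervals are exact binomial and cover counting error only, so the spread between libraries comes on top. For HLA-B and HLA-C, single library sets gave ratios outside these intervals. In fits with a single K562 library set, the log2 difference for HLA-B was 9.11 against replicates 1 and 2 and 12.02 against replicates 3 and 4, and without K562 siCtrl replicate 1 it was 10.65. For NLRC5 it was 7.85 against replicates 1 and 2 and 8.96 against replicates 3 and 4, and for HLA-C 6.54 against replicates 1 and 2 and 8.14 against replicates 3 and 4. KBM7 was far higher in each of these fits, but the size of the ratio rests on the set.

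The size of the gap differed widely between members. The log2 difference, KBM7 siCtrl over K562 siCtrl in a fit of all 12 libraries, was 9.97 for HLA-B (SE 0.341), 8.30 for NLRC5, 7.13 for HLA-C, 3.95 for TAP1 (SE 0.351), 2.56 for HLA-E (SE 0.2), 1.23 for B2M (SE 0.0988) and 1.09 for TAPBP (SE 0.13). All 7 passed the threshold, with adjusted p up to 1.16e-05 from edgeR, as 73.9% of 15833 genes did in either direction and 37.7% did with KBM7 higher (36.2% were lower). NLRC5 entered this test only through its level in KBM7, so its call was bound to the filter. HLA-B did not pass the filter in K562 on its own and had 1 to 17 counts per siCtrl library there. For TAP1 the log2 difference was 3.49 against K562 replicates 1 and 2 and 4.66 against replicates 3 and 4. TAP2 was the exception, at 34.9 ± 0.414 CPM in KBM7 (SD, n = 2) and 38.6 ± 1.39 CPM in K562 (SD, n = 4), a log2 difference of -0.14 (adjusted p = 0.0557 from edgeR). This TAP2 difference passed without K562 siCtrl replicate 1 (-0.17, adjusted p = 0.0301 from edgeR). It also passed with the sets as a term (-0.14, adjusted p = 0.043 from edgeR), where the K562 level is that of replicates 1 and 2. TAP2 did not pass in fits with a single K562 library set. Its log2 difference was -0.11 against replicates 1 and 2 (adjusted p = 0.103 from edgeR) and -0.11 against replicates 3 and 4 (adjusted p = 0.0807 from edgeR). The lines were deposited in separate tables under different number prefixes, whose meaning no source gives, so the line and anything else that sets the tables apart cannot be told apart. The lines also differ in markers: 5 erythroid markers summed to 50.5 to 54.4 CPM in KBM7 siCtrl and 993.4 to 1179 CPM in K562 siCtrl, and 5 fibroblast and epithelial markers to 13.4 to 13.6 CPM in KBM7 siCtrl and 467.4 to 688.1 CPM in K562 siCtrl, where COL1A1, COL1A2, EPCAM and KRT8 were above 1 CPM. Their part in the baseline difference was not tested.

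Levels per kb of the canonical transcript put the members in order. In KBM7 siCtrl, B2M stood at 754.8 CPM per kb, followed by HLA-B at 220.4, HLA-E at 77.9, TAPBP at 56.4, HLA-C at 49.9, TAP1 at 26.9, TAP2 at 6.19 and NLRC5 at 4.56 CPM per kb. No neighbours in this order overlapped between their 2 libraries, although with the union of all exons as length HLA-C came before TAPBP. In K562 siCtrl, B2M again led with 322.0 CPM per kb, followed by TAPBP at 26.6, HLA-E at 13.3, TAP2 at 6.84, TAP1 at 1.75, HLA-C at 0.357, HLA-B at 0.223 and NLRC5 at 0.0140 CPM per kb. Here HLA-C and HLA-B overlapped between libraries. HLA-B thus ranked at place 2 in KBM7 and at place 7 in K562, while TAP2 ranked at place 7 in KBM7 and at place 4 in K562.

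**Figure D2:**
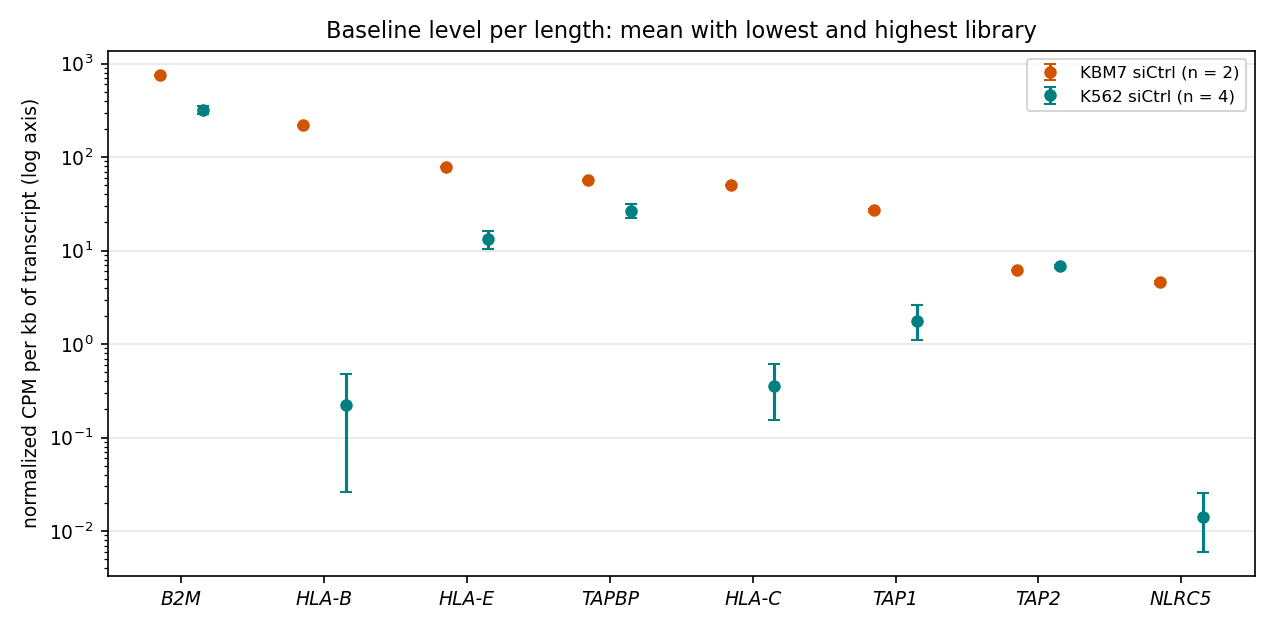
Normalized CPM per kb of canonical transcript (log axis) in siCtrl libraries of KBM7 (orange, n = 2) and K562 (teal, n = 4), with points at the mean and bars from the lowest to the highest library. HLA-B lies at 220.4 in KBM7 and 0.223 in K562, whereas TAP2 lies at 6.19 and 6.84.

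The K562 library sets differed at baseline for most of these genes. HLA-B had 17 and 11 counts in siCtrl replicates 1 and 2 and 3 and 1 counts in replicates 3 and 4, a 7.58-fold difference in mean CPM, which rests on few counts. HLA-C differed 2.94-fold, NLRC5 2.18-fold on 9 counts in all, TAP1 2.16-fold, HLA-E 1.55-fold, TAPBP 1.36-fold and B2M 1.23-fold between the same siCtrl replicates, all higher in replicates 1 and 2. TAP2 was level, with a ratio of 0.965. Of the 6 members that passed the filter in K562, 5 had siCtrl replicates 1 and 2 above replicates 3 and 4 without overlap, which was the case for 41.7% of all 13731 tested genes.

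In K562, TAP2 was the member called with the library sets as a block, and no member was called without a block. Without a block, 0 of 6 tested members passed the threshold in edgeR, as did 0% of 13731 genes. At an unadjusted p under 0.05 there was 1 member, TAP2, beside 1447 of 13731 genes. TAP2 was also the single member called by DESeq2 (adjusted p = 0.000825), which called 2.65% of genes. With the library sets as a block, 15.8% of genes were called, 6.88% as higher and 8.90% as lower, and TAP2 was again the 1 member of 6 that was higher. The median log2 fold change of the 6 members was 0.05 with this block, beside 0.00099 for all genes. On simulated counts the fit without a block recovered 31% of planted log2 changes of 0.5, and the fit with this block 77%. Of the calls made on these simulated counts, 9.02% were false without a block and 9.09% with it, beside 5.52% in the KBM7 fit. The summed level of the 5 myeloid markers was 8.16 to 12.02 CPM with siUSP15 and 13.3 to 18.9 CPM with siCtrl in K562, with CD33 above a mean of 1 CPM and ELANE without a count. Its part in the K562 results was not tested.

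TAP2 in K562 had 43.99, 47.2, 43.4 and 44.96 CPM with siUSP15 (replicates 1 to 4) and 35.6, 37.7, 37.7 and 38.2 CPM with siCtrl. Every siUSP15 library lay above every siCtrl library, as was the case for 3.86% of tested genes. The log2 fold change was 0.27 in each fit (without a block SE 0.0513 and adjusted p = 0.183 from edgeR, with the set block SE 0.0441 and adjusted p = 0.00432 from edgeR). The replicate number as a block, which pairs the K562 libraries, gave 0.27 (adjusted p = 0.0204 from edgeR). Replicates 1 and 2 alone gave 0.33 (adjusted p = 0.00162 from edgeR, where 34.4% of genes were called) and replicates 3 and 4 alone gave 0.22 (adjusted p = 0.0455 from edgeR, where 2.01% were called). Leaving out each library in turn with this set block kept the TAP2 call 8 of 8 times, at adjusted p up to 0.0233 from edgeR.

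TAP1 had 8.92, 6.45, 4.21 and 3.27 CPM with siUSP15 and 6.82, 5.62, 2.89 and 2.88 CPM with siCtrl. Within replicates 3 and 4 the siUSP15 libraries lay above the siCtrl libraries, but over all libraries the groups overlapped. With the sets as a block the log2 fold change was 0.32 (SE 0.134, adjusted p = 0.119 from edgeR), and TAP1 passed only without siUSP15 replicate 2 (0.46, adjusted p = 0.0372 from edgeR) and without the filter on low counts (0.34, adjusted p = 0.0309 from edgeR).

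B2M had 322.2, 304.2, 275.8 and 264.2 CPM with siUSP15 and 324.7, 323.0, 265.9 and 261.8 CPM with siCtrl in K562. Differences between the siRNAs were small beside the differences between the sets, and the log2 fold change was -0.01 (SE 0.034, adjusted p = 0.902 from edgeR with the sets as a block). HLA-E had a log2 fold change of 0.06 (SE 0.0769, adjusted p = 0.66 from edgeR) and TAPBP of 0.04 (SE 0.0533, adjusted p = 0.601 from edgeR) in the same fit. HLA-E ranged from 27.7 to 44.4 CPM with siUSP15 and from 25.6 to 40.3 CPM with siCtrl. TAPBP ranged from 81.5 to 101.5 CPM with siUSP15 and from 73.7 to 106.1 CPM with siCtrl. In replicates 3 and 4 siUSP15 lay above siCtrl for TAPBP (0.16, adjusted p = 0.105 from edgeR) and HLA-E (0.15, adjusted p = 0.21 from edgeR). In replicates 1 and 2 the siRNAs overlapped (TAPBP -0.06, HLA-E -0.03). The test of this difference between the sets did not pass for TAPBP (0.23, SE 0.0746, adjusted p = 0.056 from edgeR) or HLA-E (0.20, adjusted p = 0.354 from edgeR).

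The scarce transcripts allow little comparison in K562. HLA-C had 25, 42, 2 and 2 counts with siUSP15 and 16, 22, 8 and 6 counts with siCtrl. The siUSP15 libraries lay above the siCtrl libraries in replicates 1 and 2 and below them in replicates 3 and 4, and the test of this difference between the sets did not pass (log2 difference, replicates 3 and 4 minus replicates 1 and 2, -2.03, SE 0.697, adjusted p = 0.066 from edgeR, where 13.0% of genes passed). HLA-B had 13, 17, 2 and 4 counts with siUSP15, against 17, 11, 3 and 1 counts with siCtrl, and did not pass the filter. The ratio of summed HLA-B levels was 0.937 with a 95% counting interval from 0.566 to 1.56. NLRC5 had 4, 2, 1 and 1 counts with siUSP15, against 4, 2, 1 and 2 counts with siCtrl, a ratio of 0.740 (0.248 to 2.16). At this depth a change of the size found in KBM7 was not detectable for NLRC5 in K562.

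**Figure D3:**
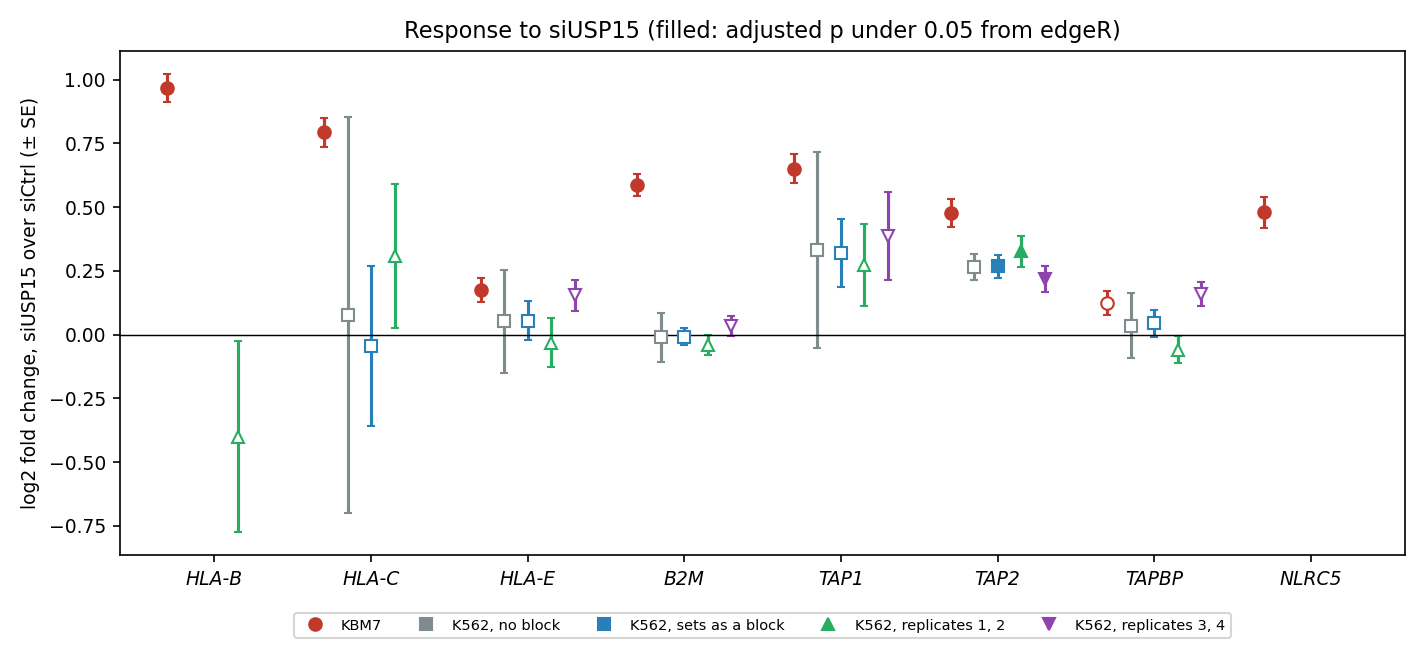
Log2 fold change (± SE) of siUSP15 over siCtrl for each member, in KBM7, in K562 without a block, with the library sets as a block and within each set. Filled symbols mark an adjusted p under 0.05 from edgeR, which 7 members reach in KBM7 and TAP2 alone reaches in K562, where HLA-B was tested only in replicates 1 and 2 and NLRC5 in no fit.

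Whether the responses differed between the lines was tested directly as the KBM7 log2 fold change minus that of K562. Without a set term, 0 of 8 members passed in edgeR, where 1.69% of genes did (0.720% with the higher response in KBM7, 0.973% with the lower). On simulated counts this fit recovered 1% of planted log2 differences of 0.5 and 44% of those of 1, so it could miss most differences of this size. At an unadjusted p under 0.05 there were 2 members, beside 2134 of 15833 genes. DESeq2 called 1 member, B2M, and 5.9% of genes. The difference for B2M was 0.60 (SE 0.145, adjusted p = 0.0695 from edgeR), and it passed without K562 siCtrl replicate 4 (0.65, adjusted p = 0.0493 from edgeR). With the K562 library sets as a term, 16.0% of genes passed, 7.94% with the higher and 8.03% with the lower response in KBM7. In this fit the B2M difference was 0.60 (SE 0.0582, adjusted p = 3.53e-06 from edgeR), and B2M kept its call 12 of 12 times when libraries were left out in turn. The HLA-B difference was 1.23 (SE 0.352, adjusted p = 0.0242 from edgeR), and it was lost without KBM7 siCtrl replicate 2 (adjusted p = 0.0501), without K562 siCtrl replicate 1 (0.224) or without K562 siUSP15 replicate 2 (0.134). HLA-B had 1 to 17 counts per library in K562, where it did not pass the filter on its own, so little can be read from its K562 response. For HLA-C it was 0.79 (adjusted p = 0.081 from edgeR) and for TAP2 0.21 (adjusted p = 0.0728 from edgeR). HLA-C passed without K562 siCtrl replicate 1 (1.04, adjusted p = 0.0423 from edgeR), TAP2 without K562 siUSP15 replicate 2 (0.25, adjusted p = 0.023 from edgeR) and TAP1 without K562 siUSP15 replicate 1 (0.45, adjusted p = 0.0426 from edgeR). HLA-C, TAP2, TAP1, HLA-E, TAPBP and NLRC5 did not pass with all libraries, so a difference between the lines was not shown for them.

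Genes around the pathway were examined by list, beside the shares of all genes called above. The K562 counts below come from the fit with the set block, since no gene passed without it. In K562 replicates 3 and 4 alone, where 2.01% of all genes were called, no gene on any list was called. No K562 call below was thus reached in each set on its own. For peptide generation and trimming in KBM7, of 12 genes tested, 9 were higher and 1 lower, with a median log2 fold change of 0.55. PSMB9, an inducible proteasome subunit whose interval holds TAP1, had 25.4 ± 2.85 CPM with siUSP15 and 9.66 ± 1.45 CPM with siCtrl (SD, n = 2 each), or 1.39 on the log2 scale (edgeR adjusted p = 4.75e-06). PSME2, a subunit of the proteasome activator PA28, rose by 0.56, LAP3, an aminopeptidase, by 0.54 and ERAP1, which trims peptides in the endoplasmic reticulum, by 0.60 on the log2 scale. In the K562 fit with set block, 4 of 12 were higher and 0 lower, with a median of 0.07. In replicates 1 and 2 alone 6 of 12 were higher (median 0.10), where 34.4% of all genes were called. In replicates 3 and 4 alone 0 of 10 were called (median 0.04). ERAP1 rose by 0.29 (53.1 ± 2.75 CPM with siUSP15 and 43.5 ± 1.28 CPM with siCtrl, SD, n = 4 each), PSME1 by 0.21 and THOP1, a peptidase of the cytosol, by 0.15 on the log2 scale. PSMB9 also passed there but at 0.517 ± 0.487 CPM with siUSP15 and 0.251 ± 0.269 CPM with siCtrl (SD, n = 4 each).

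The loading chaperones in the endoplasmic reticulum changed little in KBM7, where 2 of 8 were higher and 0 lower and the median log2 fold change was 0.04. TAPBPL, a tapasin-related peptide editor, rose by 0.58 (9.57 ± 0.876 CPM with siUSP15 and 6.44 ± 0.00595 CPM with siCtrl, SD, n = 2 each), and CANX, a lectin chaperone, by 0.15 on the log2 scale. UGGT1 (0.11) and GANAB (0.04) did not pass. In the K562 fit with set block, 4 of 7 were higher and 0 lower, with a median of 0.12: HSPA5 at 0.14, UGGT1 at 0.18, CANX at 0.18 and CALR at 0.11. In replicates 1 and 2 alone 7 of 8 were higher (median 0.19), where 34.4% of all genes were called. In replicates 3 and 4 alone 0 of 7 were called (median 0.05), where 2.01% of all genes were.

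Regulators of class I genes went both ways in KBM7, with 6 of 16 higher, 2 lower and a median of 0.07. STAT2, which carries the interferon signal to the nucleus, had 107.5 ± 5.85 CPM with siUSP15 and 68.5 ± 0.677 CPM with siCtrl (SD, n = 2 each), or 0.65 on the log2 scale (edgeR adjusted p = 3.75e-06). IRF1, an interferon-inducible activator, rose by 0.62 and CIITA, the class II transactivator, by 0.42 on the log2 scale. In the K562 fit with set block, NFYA (0.28) and NFKB1 (0.39) were the 2 of 15 that were higher, and 0 were lower. STAT2 (-0.17, adjusted p = 0.0641 from edgeR) and RFX5 (-0.10, adjusted p = 0.0987 from edgeR) did not pass, and the median was 0.05.

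MHC class II genes also rose in KBM7, with 9 of 10 tested genes higher, 0 lower and a median log2 fold change of 0.62. HLA-DRA, the alpha chain of HLA-DR, had 282.7 ± 1.60 CPM with siUSP15 and 180.9 ± 15.4 CPM with siCtrl (SD, n = 2 each), or 0.64 on the log2 scale (edgeR adjusted p = 7.2e-06). HLA-DRB1 rose by 0.74, CD74, the invariant chain, by 0.47 and HLA-DMA, a chain of the class II peptide editor, by 0.70 on the log2 scale. In K562 only HLA-DOB of 11 listed class II genes passed the filter, with 1.58 ± 0.469 CPM with siUSP15 and 1.30 ± 0.201 CPM with siCtrl (SD, n = 4 each), and it did not pass the test.

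Among class I-like molecules and ligands of natural killer receptors in KBM7, 4 of 8 were higher and 1 lower, with a median of 0.27. FCGRT, the neonatal Fc receptor that also pairs with B2M, rose by 0.77, MR1, which presents metabolites, by 0.43, and the stress ligands MICB and ULBP1 by 0.28 and 0.26 on the log2 scale, while MICA, named after its value was seen, fell by 0.32. In the K562 fit with set block, 0 of 5 passed in edgeR and 0 at an unadjusted p under 0.05, beside 4507 of 13731 genes. HFE had the lowest p (log2 fold change 0.39, adjusted p = 0.17 from edgeR). Polycomb repressive complex 2, which can silence class I genes, had 1 of 11 genes higher and 3 lower in KBM7, with EZH2, its methyltransferase, at -0.26, SUZ12 at -0.15, PHF1 at -0.42 and PHF19 at 0.23. In the K562 fit with set block, EZH1 (0.17) and AEBP2 (0.18) were the 2 of 11 that were higher, and 0 were lower. A list drawn up for turnover of class I protein, which also holds the glycosphingolipid enzyme gene B3GNT5, had 0 of 6 higher and 3 lower in KBM7. These were SUSD6 at -0.46, MARCHF9, a membrane ubiquitin ligase, at -0.56 and B3GNT5 at -0.46. In the K562 fit with set block, B3GNT5 was the 1 of 6 on this list that was lower (-0.14, adjusted p = 0.032 from edgeR), so that call is not a result about turnover.

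**Figure D4:**
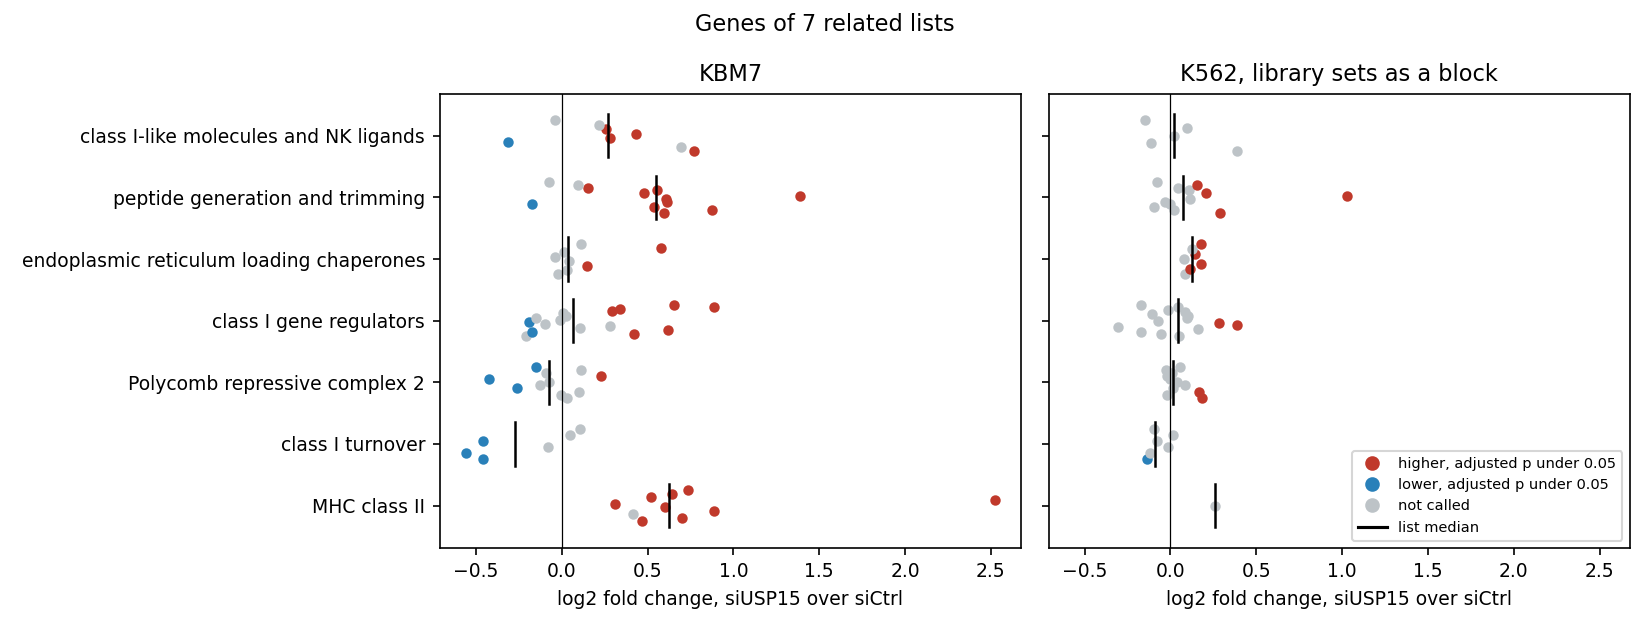
Log2 fold change of siUSP15 over siCtrl for each tested gene of 7 lists, in KBM7 (left) and in K562 with the library sets as a block (right), with black lines at the list medians. In KBM7 the lists of peptide generation (median 0.55) and MHC class II (median 0.62) lie furthest to the right, while in K562 a single class II gene was tested.

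Over the 12 libraries, the genes whose levels followed a member most closely were ranked by Pearson's r of log2 CPM. For HLA-B these were PAK1, CD47 and LY6E (r from 0.998 to 0.999), for B2M C16orf62, SHISA5 and PNKD (0.996 to 0.997), for TAP1 OAS3, IFI6 and PSMG3-AS1 (0.996 to 0.997) and for NLRC5 SORBS3, SYNE3 and EVC (0.998 to 0.999). The 12 points share their line and table, and the gap between the lines carries most of each r.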

How the data were processed

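RNA of 12 libraries was analysed. Raw counts, as the authors deposited them, were used. The labels call the K562 table batch corrected without saying how. Its count columns hold whole numbers and were taken as uncorrected. The submitters' notes on processing name TopHat2 2.1.0, hg38, HTSeq, edgeR and limma, while the paper names Itreecount and DEGseq. Deposited log2 values, fold changes and adjusted p-values of the authors' own comparisons were not used. Of the gene IDs, 97.45% (KBM7) and 97.26% (K562) were found in GENCODE v44, which gave transcript lengths. Counts were filtered with filterByExpr, scaled by TMM and tested with edgeR 4.0.16 (R 4.3.3) per cell line, or over the genes in both tables for comparisons between lines, and checked on simulated counts. The SE of a log2 fold change is not an output of this test. It was taken as the size of the log2 fold change divided by the square root of edgeR's F statistic. Members, lists and tests were chosen with earlier results of these data known. Named were all members, USP15, up to 4 genes per list and line with the lowest p (K562: sets as a block), and the 3 most alike genes of 4 members (mean log2 CPM of 1 or more). Same-numbered K562 libraries deviated together (r from 0.55 to 0.695 over 4 pairs), as did other libraries of a set, whereas KBM7 libraries did not (0.000978). Alternatives were RLE, no filter, DESeq2 1.42.0, blocks, single sets, a joint fit, summed heavy chains, other lengths and each library left out. The cells' own class I alleles were not examined. A gene that this rule names and a marker list are not reported here.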

Additional observations from a re-analysis of the deposited data

Results flagged for a closer look

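Over 16 groups of 4 K562 libraries and a member, the distance of the highest or lowest library from the rest was compared with Dixon's critical value of 0.829, which chance passes in about 1 of 20 groups. A single library passed: NLRC5 in K562 siUSP15 replicate 1, at 0.164 CPM, which is 4 counts against 1 or 2 in the other siUSP15 libraries.

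The response of B2M to siUSP15 differed between KBM7 and K562 by 0.60 in log2 units (edgeR adjusted p = 3.53e-06), and that of HLA-B by 1.23 (adjusted p = 0.0242 from edgeR), both larger in KBM7, when the K562 library sets were a term in the fit. Without that term neither passed. HLA-B did not pass the filter on low counts in K562 on its own and had 1 to 17 counts per library there, so little can be read from its K562 response. Leaving out each of the 12 libraries in turn kept its call 9 times (highest adjusted p = 0.224 from edgeR).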

How the results depend on the processing

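In KBM7, 7 members were higher with TMM or RLE scaling, DESeq2 or the replicate block, 8 without the filter, 6 to 8 with a library left out, and 2 with both lines in a single fit. The replicate block changed no call other than that of TAP2 in K562. In K562, 0 members were higher as planned and 1, TAP2, was higher with DESeq2, with the replicate block, with the sets as a block, in replicates 1 and 2 alone and in replicates 3 and 4 alone. With the sets as a block, 2 members were higher without the filter, and 1 to 2 with a library left out. At baseline 0 members were lower in KBM7 as planned, 1 with the sets as a term, and 0 to 1 with a library left out. A higher response in KBM7 was called for 0 members as planned, for 1 with DESeq2, for 2 with the sets as a term, for 0 to 1 with a library left out, and for 1 to 3 with a library left out and the sets as a term. Of the fold changes of single members under alternatives, 596 kept their side of the threshold, 18 came to pass it, 9 no longer passed it and none that passed changed sign. The cause was not tested. Over all genes, the count called in KBM7 was 4345, against 2556 with DESeq2 and 577 with both lines in a single fit, and in K562 0, against 322 with DESeq2, 1022 with the replicate block and 2167 with the sets as a block. With that block, 9.95% of genes were called without the filter and 3.99% to 18.9% with a library left out. At baseline 82% were called with the sets as a term. For the difference in response, 5.9% were called with DESeq2 and 16% with the sets as a term. With that term and a K562 library left out, 12.2% to 17.5% were called. Scaling, filter and replicate block beside the set block, single K562 sets at baseline, libraries left out with the set term and the other gene length were chosen after seeing the data. In KBM7, leaving out a library leaves a lone library, assumed to vary like the others. Summing repeated symbols was not run, as none was repeated. Low counts of the genes themselves limit what can be read for HLA-B, HLA-C and NLRC5 in K562 and for HLA-F in KBM7.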
